A study of Homo sapiens with 4 samples.

Results

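The giant genes of common fragile sites examined here were FHIT, WWOX, IMMP2L, MACROD2, AUTS2, LRP1B, DLG2, PTPRD and CSMD1. They were taken by symbol as a fixed list of 9 genes of about 1 Mb or more that lie at or near common fragile sites, out of 51740 genes in the table and 23333 genes that the authors had tested between the fractions. The members were chosen by name with the log2 fold change between the fractions already known, so that fold change describes them here and tests nothing. RNA was sequenced from nuclear and cytoplasmic fractions of HEK293T, an established line of human embryonic kidney origin that expresses the large T antigen of SV40. The cells were wild type and had been crosslinked with formaldehyde, in both groups alike, and each group held 2 biological replicates. All 4 libraries were stranded, depleted of ribosomal RNA and prepared from 400 ng of RNA. An equal mass of RNA entered each library, so a value is relative to the other RNA in that fraction, not an amount per cell. Fewer cells cannot be told apart from less RNA per cell. Values are counts divided by size factors, not plain shares of a fraction. Taken as shares, every log2 fold change (cytoplasmic over nuclear) would be 0.66 lower.

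Common fragile sites are stretches of the genome that tend to break or form gaps on metaphase chromosomes when DNA replication is slowed. Many of them coincide with very long genes whose transcription takes many hours, and deletions inside these genes are frequent in tumour cell lines. Most of such a gene is intron, which is transcribed and then removed in the nucleus before the short mRNA is exported. In these data the authors counted reads over exons and introns together, so each value below holds spliced and unspliced RNA of the gene in proportions that the table does not separate.

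Of the 9 genes, 8 had more signal in nuclear than in cytoplasmic libraries and CSMD1, nearly absent from both fractions, was not called. By counts divided by size factors, the 8 genes were between 5.80 and 36.5 times as abundant in nuclear as in cytoplasmic libraries. In each of them both nuclear libraries lay above both cytoplasmic libraries. Of all tested genes, 26.5% were called higher in the nuclear fraction at the study's adjusted p-value threshold of 0.01 (DESeq2, the authors' deposited test), and 25.9% were called higher in the cytoplasmic fraction. Scaled to equal library totals, a setting that lowers every log2 fold change by 0.66, these shares were 38.3% and 16.2%. Nuclear libraries lay above cytoplasmic libraries without overlap in 46.0% of the 22678 genes with reconstructed counts. These shares stand beside the members' counts only for scale, since the members had been chosen with this contrast known. The labelled fractions could be told apart by RNAs of known location. MALAT1 and NEAT1, long noncoding RNAs that stay in the nucleus, had deposited log2 fold changes (cytoplasmic over nuclear) of -3.47 ± 0.13 and -3.09 ± 0.13 (estimate ± standard error), and 82 of 83 ribosomal protein genes were called higher in the cytoplasmic fraction, with a median of 3.52.

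The deposited table gives 1 mean per gene over the 4 libraries and no value of a single library. Whole counts of single libraries were therefore reconstructed as the only set of 4 whole numbers that gave back the deposited mean, log2 fold change and standard error of a gene. Exactly 1 such set was found for each of the 9 genes, and for 99.8% of the 22716 genes tried. The counts are derived values that assume the authors' model. The libraries of a fraction are called deeper and shallower by their size factors, 1.34 and 1.19 in the nuclear fraction and 0.853 and 0.755 in the cytoplasmic fraction, because the replicate number that belongs to each could not be read from the table. Normalized counts are these counts divided by the size factor.

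The structure of the genes sets the scale of the measurement. Together the 9 genes span 15.2 Mb of hg38, of which 139.6 kb, or between 0.441% (IMMP2L) and 2.08% (AUTS2) of each span, is exon in any annotated transcript (GENCODE 44). FHIT lies on the minus strand at chr3:59747277-61251459, and its canonical transcript joins 10 exons, with 441 coding nucleotides, across 1504 kb. WWOX lies on the plus strand at chr16:78099400-79212667, with 9 exons and a longest intron of 778.9 kb, the longest among the 9 genes. IMMP2L, on the minus strand at chr7:110662644-111562517, is the shortest at 899.9 kb and joins 6 exons. MACROD2 (plus strand, chr20:13995369-16053197) has 18 exons over 2058 kb, and AUTS2 (plus strand, chr7:69598296-70793506) has 19 exons over 1195 kb. The genes of the large membrane proteins have more exons. LRP1B (minus strand, chr2:140231423-142131016) joins 91 exons with 13797 coding nucleotides, and CSMD1 (minus strand, chr8:2935353-4994972) joins 70 exons with 10692. DLG2 (minus strand, chr11:83455012-85628335) has 28 exons and PTPRD (minus strand, chr9:8314246-10613002), the longest gene of the list at 2299 kb, has 46. Length did not decide the list alone, as DPYD, with 917.3 kb, is longer than IMMP2L and is not in it. Other annotated genes cover part of 8 of the 9 spans, and the uncovered part was 88.2% of the span for MACROD2 and 100% for AUTS2, the lowest and the highest values. The authors had removed stretches covered by more than 1 gene before counting.

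**Figure D1:**
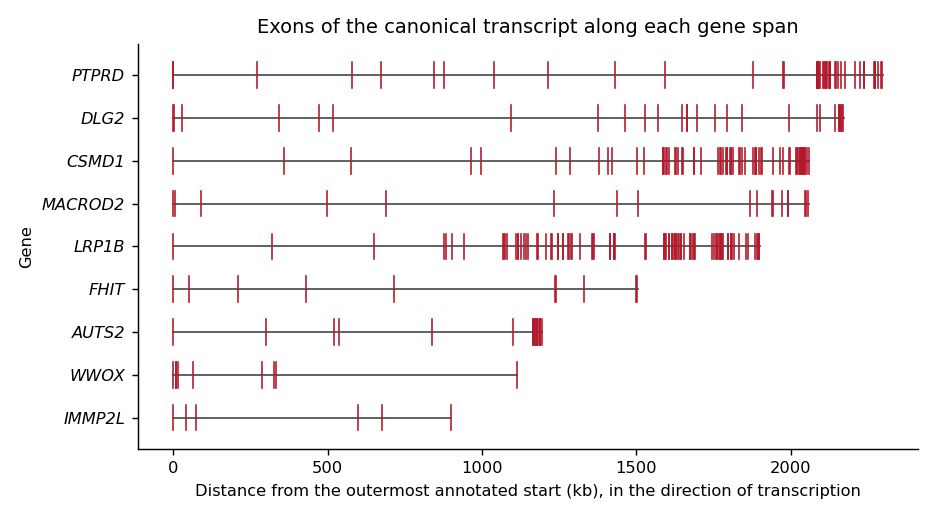
Exons of the canonical transcript (red ticks, not to scale in width) along the span of each gene, as distance in kb from the outermost annotated start in the direction of transcription. The 9 spans run from 899.9 kb (IMMP2L) to 2299 kb (PTPRD), and the exons of AUTS2, LRP1B and PTPRD crowd towards the end of the gene while single introns of WWOX, DLG2, MACROD2, IMMP2L and FHIT cover over 500 kb.

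A promoter is the stretch of DNA at which transcription of a gene starts, and giant genes can have several. The outermost promoters of 4 genes are shown because they belong to the most abundant genes and to the gene with the weakest nuclear excess among the 8. Each is the 250 bases before the outermost start that RefSeq lists, read 5′ to 3′ on the strand of the gene in hg38, with every GC box (GGGCGG on either strand, so also CCGCCC) in capitals.
WWOX, chr16:78099404-78099653, plus strand: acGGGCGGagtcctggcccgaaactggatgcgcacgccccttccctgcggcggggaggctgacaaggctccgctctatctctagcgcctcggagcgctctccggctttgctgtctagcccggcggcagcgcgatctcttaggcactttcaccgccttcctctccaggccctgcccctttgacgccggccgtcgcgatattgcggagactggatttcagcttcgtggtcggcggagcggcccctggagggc
AUTS2, chr7:69598225-69598474, plus strand: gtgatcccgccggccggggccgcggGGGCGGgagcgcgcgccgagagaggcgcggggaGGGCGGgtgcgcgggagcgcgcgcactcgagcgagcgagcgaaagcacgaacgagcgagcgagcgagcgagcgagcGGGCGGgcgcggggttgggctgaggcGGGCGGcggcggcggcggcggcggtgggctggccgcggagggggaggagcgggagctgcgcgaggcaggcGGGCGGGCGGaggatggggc
FHIT, chr3:61251453-61251702, minus strand: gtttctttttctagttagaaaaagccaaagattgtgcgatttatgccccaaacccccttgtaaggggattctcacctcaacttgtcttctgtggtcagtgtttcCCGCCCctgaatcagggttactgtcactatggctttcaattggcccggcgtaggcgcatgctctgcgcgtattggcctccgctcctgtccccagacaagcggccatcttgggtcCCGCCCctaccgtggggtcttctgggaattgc
PTPRD, chr9:10613003-10613252, minus strand: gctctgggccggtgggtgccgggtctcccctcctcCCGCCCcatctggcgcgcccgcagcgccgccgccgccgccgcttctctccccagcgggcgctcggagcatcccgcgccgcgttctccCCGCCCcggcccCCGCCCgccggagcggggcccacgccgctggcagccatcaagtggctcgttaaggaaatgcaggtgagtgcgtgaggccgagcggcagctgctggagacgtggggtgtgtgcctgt
RefSeq entries were matched for 7 of the 9 genes, FHIT, WWOX, IMMP2L, MACROD2, AUTS2, DLG2 and PTPRD. In all 7 this outermost window held at least 1 GC box, against 42.6% of 35116 promoter windows of the same length. A CCAAT box (CCAAT on either strand) was present in 3 of the 7, and in 32.0% of all windows. A TATA box (TATAAA on either strand) was present in none of the 7 and in 10.7% of all windows. CG dinucleotides numbered 11 in the FHIT window, which was also the median over all windows, and 49 in the AUTS2 window, the lowest and the highest count of the 7. These genes have 19 listed starts, of which only the outermost were counted. The shares over all windows were not limited to outermost starts, so the comparison is not like for like. Among the inner windows a GC box was found only in PTPRD and a TATA box only in DLG2. These matches describe the letters of the windows, and the counts of RNA carry no information on which start was used.

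FHIT encodes a hydrolase of diadenosine polyphosphates of the histidine triad family and is often deleted in tumours. Its reconstructed counts were 36238 and 28143 in the deeper and shallower nuclear libraries and 580 and 536 in the deeper and shallower cytoplasmic libraries. Normalized, these were 27024 and 23665 in the nucleus against 680.1 and 710.3 in the cytoplasm, so the lower nuclear value was 33.3 times the higher cytoplasmic value. In the authors' deposited table its log2 fold change was -5.19 ± 0.12, the lowest of the 9 genes. WWOX encodes an oxidoreductase with WW domains that is likewise lost in many tumours. Its counts were 42820 and 35322 in the nuclear and 1361 and 1152 in the cytoplasmic libraries. The normalized values, 31932 and 29702 against 1596 and 1527, gave a nuclear mean 19.7 times the cytoplasmic mean (deposited log2 fold change -4.30 ± 0.11). Both genes thus had high nuclear counts, summed over their whole span, and the groups were far apart in each.

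IMMP2L, a subunit of the peptidase that trims proteins at the inner mitochondrial membrane, had 16412 and 12979 nuclear counts and 286 and 248 cytoplasmic counts. Its normalized values of 12239 and 10914 against 335.3 and 328.7 put the nuclear mean at 34.9 times the cytoplasmic mean, close to FHIT (log2 fold change -5.12 ± 0.13). MACROD2, an enzyme that removes ADP-ribose from proteins, had 5022 and 4096 nuclear counts and 120 and 80 cytoplasmic counts. Its normalized values were 3745 and 3444 in the nucleus and 140.7 and 106.0 in the cytoplasm, a ratio of means of 29.1 (log2 fold change -4.86 ± 0.16). AUTS2 encodes a nuclear regulator of transcription that is best known from neurodevelopmental disorders. It had 43081 and 32491 nuclear counts and 1171 and 1175 cytoplasmic counts. The normalized values were 32127 and 27322 against 1373 and 1557, and the nuclear mean was 20.3 times the cytoplasmic mean (log2 fold change -4.34 ± 0.12). In the cytoplasm AUTS2 was the higher in the shallower library, whereas MACROD2 was the higher in the deeper one.

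The remaining genes encode proteins of the cell membrane or its scaffolds. LRP1B, a receptor of the low-density lipoprotein receptor family, had 6510 and 5455 nuclear counts against 129 and 83 cytoplasmic counts. Its normalized values were 4855 and 4587 against 151.3 and 110.0, a ratio of means of 36.1 (log2 fold change -5.17 ± 0.16), as large as that of FHIT within their errors. DLG2, a scaffold protein of synapses, had 1656 and 1383 nuclear counts and only 59 and 52 cytoplasmic counts. Normalized, these were 1235 and 1163 against 69.2 and 68.9, a ratio of 17.4 (log2 fold change -4.12 ± 0.20). PTPRD, a receptor-type protein tyrosine phosphatase, stood apart from the others, with 2120 and 1807 nuclear and 232 and 198 cytoplasmic counts. Its normalized values of 1581 and 1520 against 272.0 and 262.4 differed 5.80-fold (log2 fold change -2.54 ± 0.15), and the lower nuclear value was still 5.59 times the higher cytoplasmic one.

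CSMD1, a transmembrane protein with CUB and sushi domains that restrains complement, was the exception. It had 7 and 6 counts in the nuclear libraries and 6 and 4 in the cytoplasmic libraries, 23 in all. Its normalized values of 5.22 and 5.05 in the nucleus lay slightly below those of 7.04 and 5.30 in the cytoplasm. The deposited log2 fold change was 0.27 ± 1.25 (DESeq2 adjusted p = 0.871), and its 95% interval from -2.18 to 2.71 held changes in either direction. At this depth the direction of a difference could not be told.

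**Figure D2:**
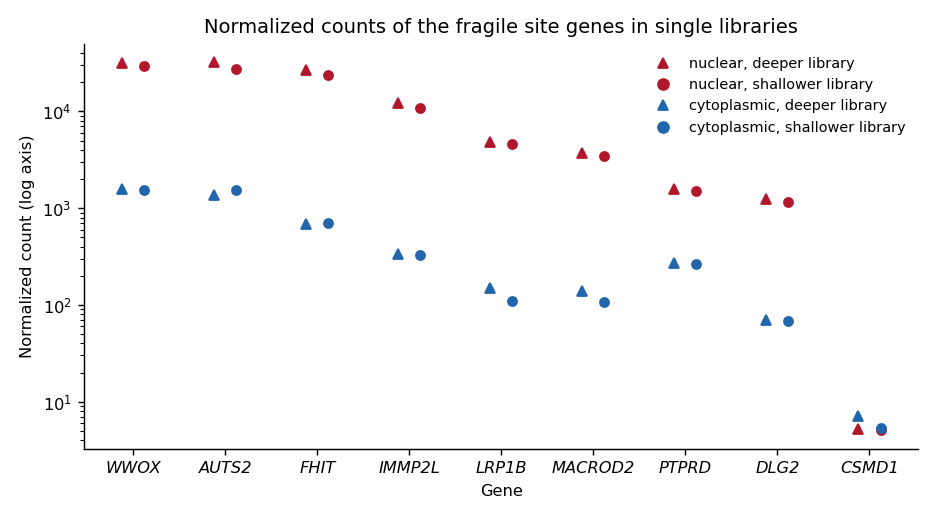
Normalized counts (log axis) of each gene in the 2 nuclear (red) and 2 cytoplasmic (blue) libraries, with triangles for the deeper and circles for the shallower library of a fraction and genes ordered by their nuclear mean. Both red points lie above both blue points for every gene except CSMD1, and the gap is narrowest for PTPRD among the other 8.

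By the deposited log2 fold change the genes ran, from most to least nuclear, FHIT, LRP1B, IMMP2L, MACROD2, AUTS2, WWOX, DLG2, PTPRD and CSMD1. Neighbours in this order lay within 2 combined standard errors of each other except at 3 steps. The step from MACROD2 to AUTS2 was 0.51 ± 0.20 on the log2 scale, that from DLG2 to PTPRD 1.58 ± 0.25, and that from PTPRD to CSMD1 2.80 ± 1.26. The order is a description of the values on which the list was drawn up. Over the 8 genes other than CSMD1, Spearman's rho of the log2 fold change was 0.45 with the span and 0.12 with the longest intron. It was 0.40 with the exonic percentage of the span and 0.38 with the coding length. With only 8 genes no trend was read from these values, and none was tested. All are across genes that share the same 4 libraries.

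The members took up 0.598% of all normalized counts of the nuclear fraction and 0.0162% of those of the cytoplasmic fraction. WWOX, AUTS2 and FHIT made up 79.1% of the members' nuclear sum. Levels between genes were compared per kb of span, because introns were counted. The nuclear level was 27.7 normalized counts per kb for WWOX and 24.9 for AUTS2, whose libraries overlapped in range. It was 16.8 for FHIT, 12.9 for IMMP2L, 2.49 for LRP1B, 1.75 for MACROD2, 0.674 for PTPRD, 0.552 for DLG2 and 0.00249 for CSMD1, and none of these overlapped with its neighbour in the order.

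The rank of a giant gene among protein-coding genes depended on the length by which its level was divided. Per kb of span, nuclear FHIT stood at the 45.1th percentile of tested protein-coding genes and nuclear WWOX at the 64.1th, both near the middle of the range. MACROD2 stood at the 4.72th and LRP1B at the 6.82th percentile. Divided by exonic length in place of the span, the same nuclear levels put FHIT at the 99.9th percentile, WWOX at the 99.5th, IMMP2L at the 99.8th, AUTS2 at the 98.6th, MACROD2 at the 81.0th, LRP1B at the 78.2th, PTPRD at the 51.8th and DLG2 at the 18.2th. CSMD1, whose own mean of 5.65 is below the limit for these genes, lay under all of them. The cytoplasmic level per kb of exon was in the lower part of the range, at the 37.5th percentile for FHIT, 36.9th for WWOX, 34.5th for IMMP2L, 25.9th for AUTS2, 11.3th for PTPRD, 4.96th for MACROD2, 3.52th for LRP1B and 0.692th for DLG2. How much of the cytoplasmic signal came from exons was not measured.

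Long genes in general were more nuclear than short ones, and the members were set beside other long genes. Other protein-coding genes were taken with a span of at least 500 kb and a mean normalized count over 50. For these 224 genes the median log2 fold change was -3.02 (middle 50% from -3.84 to -2.17), against -4.60 for the 8 members with a mean over 50. Without a minimum mean it was -2.68 for the other long genes and -4.34 for the 9 members. It was then -0.12 for all tested genes and 0.11 for tested protein-coding genes. Of these 224 genes, 216 were called higher in the nuclear fraction, 3 in the cytoplasmic fraction and 5 in neither. Most of them are shorter than the members. For the 39 with a span of at least 1000 kb the median was -3.78, nearer to that of the members, and of these 39 genes 2 lay below FHIT, LRP1B and IMMP2L, 4 below MACROD2, 11 below AUTS2 and WWOX, 14 below DLG2 and 30 below PTPRD. Among all 224, FHIT and LRP1B each had 3 of the 224 genes below them in log2 fold change, and IMMP2L had 4. The genes below FHIT included CADM2 (-5.91 ± 0.26) and FAM155A (-5.24 ± 0.21), named after their values were seen. MACROD2 had 7 genes below it, AUTS2 24, WWOX 25, DLG2 31 and PTPRD 147, so PTPRD lay on the less nuclear side of the median of long genes. The long genes called higher in the cytoplasm were CNTNAP2 (0.58 ± 0.19), B3GALT1 (1.58 ± 0.32) and LHFPL3 (2.92 ± 0.37), also named after their values were seen, and with equal library totals the value of CNTNAP2 turned to -0.08.

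The genes whose log2 fold change was nearest to the members' median of -4.34, among the same long genes, were ADGRB3 (-4.32), DAB1 (-4.38), DLGAP1 (-4.38), PRKG1 (-4.39) and CTNNA3 (-4.29). Likeness here means the distance of 1 value, taken over the same 4 libraries. DAB1, an adaptor of reelin signalling, had 2099 and 1681 nuclear counts and 54 and 61 cytoplasmic counts. CTNNA3, an alpha catenin, had 3170 and 2772 nuclear counts against 113 and 80. Both also belong to the wider set of fragile site genes that follows.

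**Figure D3:**
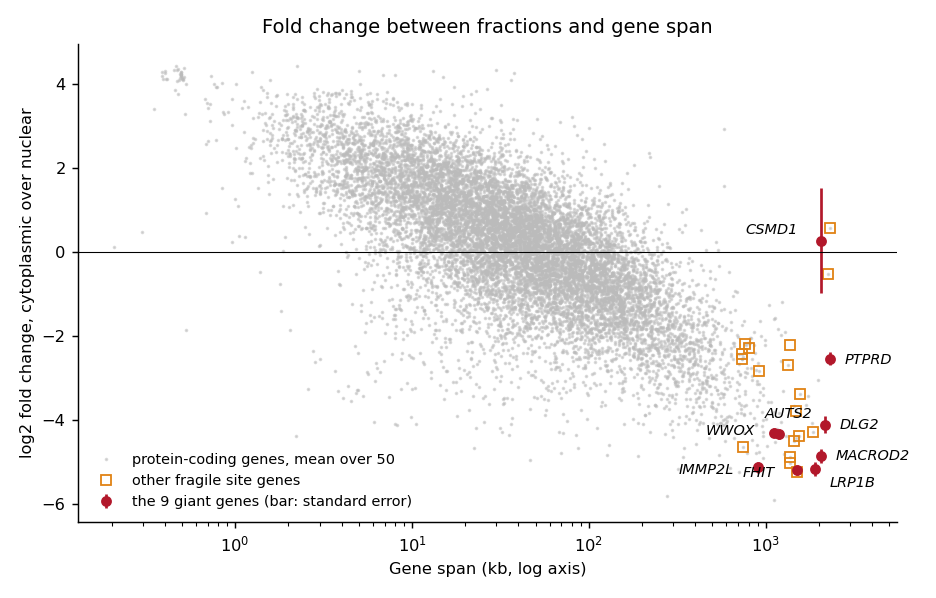
Log2 fold change between the fractions (authors' deposited values, cytoplasmic over nuclear) against gene span (kb, log axis) for protein-coding genes with a mean over 50 (grey), the 9 giant genes (red, bars are standard errors) and 18 other fragile site genes (orange squares). The grey cloud falls with span, 8 of the red points lie between -5.19 and -2.54 at its long end, and CSMD1 lies at 0.27 with an error bar of 1.25.

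A further 18 genes known from common fragile sites gave a mixed picture around a nuclear majority. All 18 were tested, 16 were called higher in the nuclear fraction, 1 in the cytoplasmic fraction and 1 in neither, with a median log2 fold change of -3.11. Of all tested genes, 26.5% were called nuclear and 25.9% cytoplasmic. Those of the 18 with a mean over 50 are also part of the 224 other long genes above. Of these 224, 216 were called nuclear and the median was -3.02, so the 2 sets are not separate. DPYD, which encodes the first enzyme of pyrimidine breakdown, lay at the middle of the list at -2.84 ± 0.14. CNTNAP2, a neurexin-family adhesion protein, was the highest at 0.58 ± 0.19, with normalized values of 261.0 and 289.3 in the nuclear and 406.9 and 416.1 in the cytoplasmic libraries. CNTNAP2 spans 2305 kb, as long as PTPRD, and its call was lost under equal totals, at -0.08. DMD, the dystrophin gene of 2242 kb, was called higher in the nuclear fraction with a log2 fold change of only -0.52 ± 0.15, a gene singled out after its value was seen. PTPRD, DMD and CNTNAP2 were thus 3 genes with a mean over 50 and spans of 2242 to 2305 kb whose log2 fold changes lay well above those of DLG2 and MACROD2, which are of like length. A mean over 50 was reached by 16 of these 18 genes and by 8 of the 9 members.

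The relatives of the giant genes in the same protein families have shorter genes, mostly far shorter with a median of 77.2 kb, apart from CSMD3 (1214 kb) and CSMD2 (651.8 kb). Of 21 relatives, 9 were called higher in the nuclear fraction, 7 in the cytoplasmic fraction and 5 in neither, with a median log2 fold change of -0.32. This split depended on the scaling, and with equal library totals 13 were nuclear, 4 cytoplasmic and 4 in neither, with a median of -0.99. The shares over all tested genes were 26.5% nuclear and 25.9% cytoplasmic as deposited, and 38.3% and 16.2% with equal totals. For the 8 genes other than CSMD1, each of the 19 relatives was shorter and less nuclear than its giant counterpart, by between 1.96 and 8.28 on the log2 scale. These differences use the members' fold change and are given as a description. The histidine triad relatives of FHIT gave the widest contrast. HINT1 (3.09 ± 0.12), HINT2 (3.01 ± 0.23) and HINT3 (1.81 ± 0.15) were higher in the cytoplasm, and APTX, which repairs abortive DNA ligation ends, was moderately nuclear (-0.80 ± 0.13). Among the short-chain dehydrogenases related to WWOX, RDH11 (0.49 ± 0.15), RDH13 (0.55 ± 0.14) and RDH14 (1.63 ± 0.19) were all called higher in the cytoplasm, but RDH11 and RDH13 fell to -0.17 and -0.11 under equal totals and were then not called. IMMP1L, the partner subunit of IMMP2L in the same peptidase, spans 77.2 kb and had 3640 and 2959 nuclear against 655 and 523 cytoplasmic counts (-1.83 ± 0.13).

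Of the other relatives, MACROD1 (-0.48 ± 0.16) and OARD1 (-0.65 ± 0.18), which share the macrodomain fold of MACROD2, were called higher in the nucleus. The AUTS2 relatives FBRSL1 (-0.32 ± 0.12) and FBRS (0.26 ± 0.12) were not called in either direction as deposited. Under equal totals both were called higher in the nucleus (-0.99 and -0.40). LRP1 (-0.99 ± 0.19) and LRP2 (-1.11 ± 0.13), giant endocytic receptors with genes of 84.9 and 235.4 kb, were called higher in the nucleus, although much less so than LRP1B. For DLG2 the relatives split, with DLG1 (-2.11 ± 0.11) and DLG4 (-2.16 ± 0.23) higher in the nucleus and DLG3 (0.52 ± 0.12) higher in the cytoplasm as deposited, though not under equal totals (-0.14). DLG4 spans only 32.7 kb and was as nuclear as DLG1, which spans 256.8 kb. PTPRS (0.00 ± 0.12) and PTPRF (0.27 ± 0.10), the close relatives of PTPRD, were called in neither fraction as deposited, but higher in the nucleus under equal totals (-0.66 and -0.40). CSMD3 was nuclear (-2.78 ± 0.76) with 48 and 58 against 8 and 2 counts, and CSMD2 (-0.47 ± 0.96) was not called with 15 and 15 against 10 and 4 counts, so the whole CSMD family was sparsely covered.

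**Figure D4:**
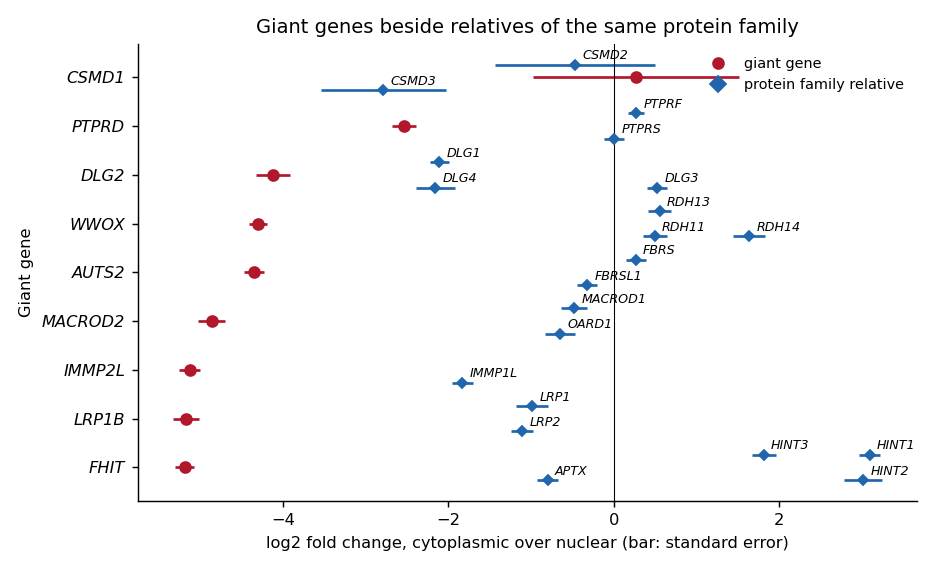
Log2 fold change between the fractions (authors' deposited values) of each giant gene (red circles) and of its relatives in the same protein family (blue diamonds), with standard errors as bars. Every relative of the 8 genes from FHIT to PTPRD lies to the right of its giant gene, from DLG4 at a distance of 1.96 to HINT1 at a distance of 8.28.

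Proteins that keep fragile sites intact under replication stress were examined as the functional counterpart of the sites. Of the 20 listed genes, all were tested, 6 were called higher in the nuclear fraction, 4 in the cytoplasmic fraction and 10 in neither, with a median log2 fold change of -0.02. With equal library totals 15 were nuclear, 2 cytoplasmic and 3 in neither, and the median was -0.68. Of all tested genes, 26.5% were called nuclear and 25.9% cytoplasmic as deposited, and 38.3% and 16.2% with equal totals. Nothing particular to these 20 genes was read from the counts. The lowest were FANCA, of the Fanconi anaemia core complex, with 15320 and 14387 nuclear against 2344 and 2378 cytoplasmic counts, and RAD52, which acts in DNA synthesis at collapsed forks (-1.83 ± 0.14). The highest were ERCC1, a subunit of a structure-specific nuclease (1.94 ± 0.15), and TIMELESS, of the fork protection complex (1.24 ± 0.11). Their genes were 175.3 kb long at most.

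The libraries of a fraction also differed from each other, a measure that the choice of the genes did not use. All 9 members had the higher normalized value in the deeper nuclear library, by between 0.05 (CSMD1) and 0.23 (AUTS2) on the log2 scale. The same direction held for 50.9% of 11524 protein-coding genes with a mean over 50 and reconstructed counts, and for 76.6% of 192 other long ones. Counts of genes outside the lists were reconstructed only up to a mean of 5000, which FHIT, WWOX, AUTS2 and IMMP2L exceed. The genes set beside the members thus leave out most of the abundant ones. Across genes the difference grew with span, from a median of -0.16 in the shortest 10th of protein-coding genes to 0.13 in the longest. In the cytoplasmic fraction the medians stayed between -0.06 and -0.03 in all span classes, and 7 of the 9 members were the higher in the deeper library, against 40.3% of protein-coding genes and 49.0% of other long ones. LRP1B (0.46) and MACROD2 (0.41) differed most there among genes with over 50 counts per library. With 2 libraries per fraction these differences have no test, and they are small beside the distance between the fractions.

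**Figure D5:**
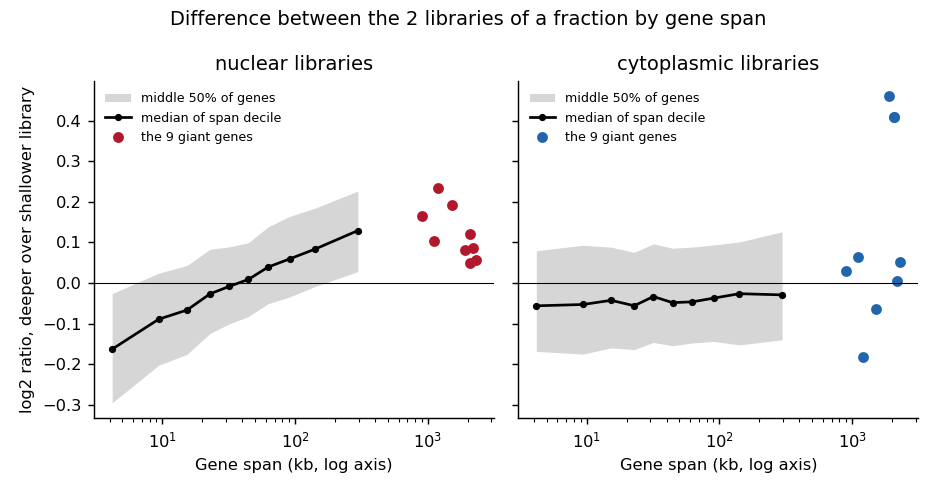
Log2 ratio of normalized counts in the deeper over the shallower library of the nuclear (left) and cytoplasmic (right) fraction against gene span (kb, log axis). The black line joins medians of span classes of equal size, the grey band holds the middle 50% of genes and the coloured points are the 9 giant genes, all above 0 in the nuclear panel, where the medians climb from -0.16 to 0.13.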

How the data were processed

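RNA-seq of 2 nuclear and 2 cytoplasmic libraries (paired-end, 100 nt) was used. The authors aligned reads to hg38 with STAR, counted them per gene with featureCounts 2.0.2 over exons and introns on GENCODE 34 extended with genes found only at NCBI, removed overlapping stretches and readthrough transcripts, and compared the fractions with DESeq2. The deposited table holds, per gene, a signal averaged by the authors over all libraries (counts divided by size factors), the authors' log2 fold change (cytoplasmic over nuclear) with its standard error, and the authors' deposited p-value and adjusted p-value. These comparison columns are the authors' own, and no new test was run. A call is an adjusted p-value of at most 0.01.

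Counts of single libraries were reconstructed with Python 3.11.15, numpy 2.4.6, scipy 1.17.1 and numba 0.67.0. A gene with 1 count in 1 library fixes that library's size factor, and such genes numbered 1231 and 1078 for the nuclear and 600 and 476 for the cytoplasmic libraries, with the fraction of each read from the direction of those genes' fold changes. Sets of 4 whole numbers with the deposited mean were refitted with a negative binomial model and kept where the deposited fold change and error came out. Of 22716 genes tried (mean up to 5000, plus the listed genes), 22678 gave 1 set, 27 none, 1 several and 10 too many to list. The reconstruction was tested on simulated data. Read totals of the libraries are not given in the table, and error bounds cover the spread between libraries of 1 cell line.

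Spans, exons and coding lengths came from GENCODE 44 on hg38 (99.1% of tested genes matched by identifier) and promoters from RefSeq. The members, the gene lists and their naming were chosen with earlier results of these data known: all 9 members, all relatives, extremes and middle of the other lists (some of these are not reported here), and the 5 long genes nearest to the members' median. Alternatives were scaling, centring, filters, length and single libraries left out.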

Additional observations from a re-analysis of the deposited data

How the results depend on the processing

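The count of members called higher in the nuclear fraction was 8 under a Bonferroni adjustment, under scaling to equal library totals and under centring on the protein-coding median. The median log2 fold change of the members moved from -4.34 to -4.60 when only the 8 members with a mean over 50 were kept and to -5.01 under equal totals, a scaling that lowers every gene by 0.66, and it was -4.45 after centring. CSMD1, not called, was 0.27 as deposited and -0.39 under equal totals. The alternatives for the relatives, the stability genes and the other fragile site genes, whose median went from -3.11 to -3.78 under equal totals, were chosen after seeing the data. The median of the other long genes moved from -3.02 to -2.68 with no minimum mean and to -3.78 for a span of at least 1000 kb. Leaving out each library in turn gave -5.28 to -5.09 for FHIT, -4.35 to -4.25 for WWOX, -5.20 to -5.04 for IMMP2L, -5.08 to -4.68 for MACROD2, -4.45 to -4.22 for AUTS2, -5.42 to -4.96 for LRP1B, -4.16 to -4.07 for DLG2, -2.56 to -2.51 for PTPRD and 0.05 to 0.45 for CSMD1, as values with no test. A pseudocount of 1 moved none of the 9 values beyond its standard error. Nuclear levels per kb moved by more than the spread between libraries in 3 of 9 genes when only the uncovered span was used. No paired analysis was possible because the reconstructed libraries carry no replicate number. Depth limited CSMD1 most, with 23 counts in all, and the cytoplasmic values of DLG2, LRP1B and MACROD2, with 111, 212 and 200.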

Other observations

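Among the other fragile site genes, LSAMP, an adhesion protein of the limbic system with a gene of 1337 kb, was the one whose nuclear libraries differed most. Its counts were 95 in the deeper and 169 in the shallower nuclear library, normalized 70.8 and 142.1, the opposite direction to the 9 giant genes, and 19 and 8 in the cytoplasmic libraries. The gene was chosen after its values were seen, and with 2 libraries a fraction the difference was not tested.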
